A study of Homo sapiens with 6 samples.

Results

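RNA of A549 cells transfected with MYEOV siRNA 2 was compared with RNA of A549 cells transfected with a control siRNA, by function, across the transcriptome. The comparison used 4 of the 6 arrays of the series, 2 per group, chosen by their titles: 2 arrays of cells given siRNA 2 and 2 of cells given the control siRNA. The other 2 arrays came from cells given MYEOV siRNA 1, and they entered the shared estimate of spread and a direct comparison of both siRNAs. A549 is an established human lung cancer cell line. All groups were the same unmodified line grown in the same serum-supplemented medium, were transfected with a lipid reagent and were collected 48 h later, per the labels' protocols, and no group was left untransfected. Whether a replicate was a separate transfection or a repeat of 1 RNA is not stated in the labels, so p-values reflect a spread that may be technical. The sources used here give neither the target of the control siRNA nor the sequence of any of the 3 siRNAs. Total RNA was read on Affymetrix whole-transcript arrays, whose probes lie along the length of each transcript, and each value is a log2 signal made with RMA, a method that subtracts background, gives all arrays the same distribution and combines the probes of each transcript. A difference of 1 on this scale is a 2-fold difference, and RMA compresses differences of dim transcripts.

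Of 14884 named genes, 7442 had a mean of 5.45 or more over the 6 arrays, a limit equal to the median named gene, and were tested. BLOC1S4 (mean 5.4506), STK11IP (5.4507) and BMPER (5.4518) lay just inside this limit, and SNAI3-AS1 (5.4496), LRCH4 (5.4490) and TEX9 (5.4483) lay just outside it. A gene was called when its adjusted p from limma, with the Benjamini-Hochberg method over all genes tested, was under 0.05. Differences are given as siRNA 2 minus control ± the standard error from limma. With 2 arrays against 2, an exact permutation test cannot give a two-sided p below 0.333, and every call depends on limma borrowing its estimate of spread from other genes. The number of arrays limits the precision.

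A small interfering RNA is a short duplex whose guide strand is loaded into an Argonaute protein and directs the cleavage of RNAs that match it along its length. A guide strand can also lower RNAs that match it only at its seed, the bases near its 5′ end, as a microRNA does, and 2 siRNAs against 1 gene differ in these partial matches. MYEOV (myeloma overexpressed) is a gene of human chromosome 11 near the cell-cycle gene CCND1, and it was named from myeloma cells in which it is highly expressed.

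Replicate arrays correlated at 0.993 for control, 0.994 for siRNA 1 and 0.994 for siRNA 2 over the 7442 genes tested. Array medians over all 53617 rows lay between 4.08 and 4.10. Of the epithelial markers, KRT7, KRT8, KRT18, KRT19 and EPCAM passed the signal limit, while NKX2-1, SFTPB, SFTPC, SFTPD and NAPSA, markers of lung epithelium, did not. The mean signal of the 10 epithelial markers with a named row was 6.22 to 6.27 in the control arrays and 6.18 to 6.27 in the siRNA 2 arrays. None of 3 fibroblast and 4 endothelial markers passed the limit, 1 of 3 immune markers did (CD68, also a lysosomal protein), and limma called none of the 6 markers that entered the test, of which 4, all epithelial, had an unadjusted p under 0.05. In bulk RNA, fewer cells of a type and less RNA per cell cannot be told apart.

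MYEOV RNA was lower with siRNA 2. The control arrays read 6.20 and 6.50, the siRNA 1 arrays 5.34 and 5.19 and the siRNA 2 arrays 5.23 and 4.70. Both siRNA 2 arrays lay below both control arrays, and the siRNA 2 arrays stood further apart from each other than those of the other groups. MYEOV fell by 1.39 ± 0.18 (adjusted p = 0.00516, limma with Benjamini-Hochberg adjustment), a signal 61.7% lower than control. All arrays of both MYEOV siRNAs read below the signal limit, and the mean of MYEOV passed it only through the control arrays. RMA compresses differences of dim transcripts, so the size of this fall is uncertain. The call held under every alternative in which MYEOV was tested, with adjusted p-values from 0.0014 to 0.0467. The difference between siRNA 2 and siRNA 1 was -0.30 (adjusted p = 0.37).

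In all, 508 of the 7442 genes, MYEOV among them, were called with siRNA 2 (6.83%), 193 higher (2.59%) and 315 lower (4.23%). The median difference over all genes tested was 0.00, and the median standard error was 0.083. The lower genes were also the larger changes: 31 fell by 2-fold or more and 11 rose by 2-fold or more, while 116 of the higher and 149 of the lower genes moved by under 0.5. The smallest called difference was 0.28. Of the 508 called genes, 486 were protein-coding, 13 were long non-coding RNAs and 3 were microRNA genes. Calls were less frequent among dim genes, with 69 among the 1861 dimmest genes and 158 among the 1861 brightest. Without each of the 6 arrays in turn, 153 of the 508 calls held every time, 44 higher and 109 lower. Those 153 included all 11 of the 2-fold rises and 29 of the 31 2-fold falls. A gene whose call was lost without an array is given below with its highest adjusted p and the array left out, and calls for which no such p is given held without each array.

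**Figure D1:**
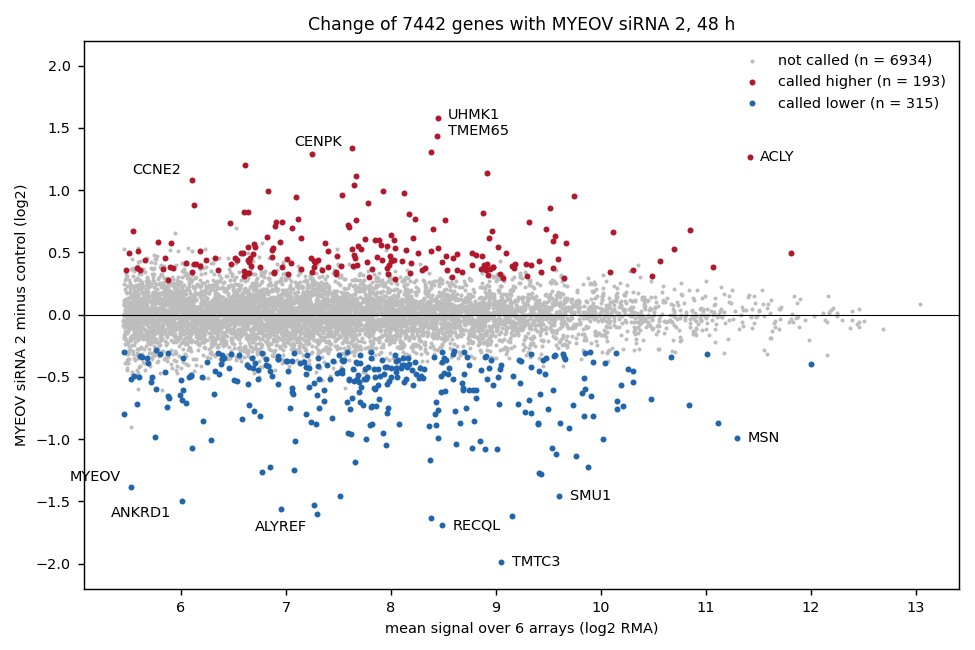
Mean signal over the 6 arrays (log2 RMA, horizontal) against the difference of siRNA 2 from control (log2, vertical), 1 point per gene tested. The 193 genes called higher are red, the 315 called lower are blue and the others grey; the largest falls, led by TMTC3 at -1.99, lie further from 0 than the largest rises, led by UHMK1 at 1.58.

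The largest fall was in TMTC3, an endoplasmic reticulum enzyme that attaches mannose to cadherins. TMTC3 read 9.62 and 9.64 in control, 9.87 and 9.85 with siRNA 1, and 7.68 and 7.62 with siRNA 2. Arrays of siRNA 2 stood alone, at 25.2% of the control signal (-1.99 ± 0.07, adjusted p = 7.43e-05, limma). RECQL, a DNA helicase of the RecQ family, read 8.96 and 9.11 in control, 9.10 and 9.06 with siRNA 1, and 7.43 and 7.26 with siRNA 2 (-1.69 ± 0.09). ISOC1, a protein with an isochorismatase domain, read 9.05 and 9.02 in control, 8.71 and 8.67 with siRNA 1, and 7.40 and 7.41 with siRNA 2 (-1.63 ± 0.07). ARHGAP1, a GTPase-activating protein that switches off Cdc42, read 9.67 and 9.70 in control, 9.66 and 9.75 with siRNA 1, and 8.06 and 8.08 with siRNA 2 (-1.61 ± 0.07). In each of these 4 genes the siRNA 1 arrays lay within 0.4 of the control arrays, and the siRNA 2 arrays lay over 1 below them. ISOC1 was called lower with siRNA 1 too (-0.34 against control, adjusted p = 0.035, limma).

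Next in size were genes of RNA handling, nucleotide turnover, cell death and translation. ALYREF, an adaptor that hands spliced mRNA to the export machinery, read 7.84 and 7.92 in control and 6.25 and 6.31 with siRNA 2 (-1.60 ± 0.07). PRUNE1, an exopolyphosphatase, read 7.34 and 7.61 in control and 5.86 and 5.97 with siRNA 2 (-1.56 ± 0.10). APAF1, the scaffold of the apoptosome that activates caspase-9, read 7.92 and 7.96 in control, 7.52 and 7.39 with siRNA 1, and 6.43 and 6.40 with siRNA 2 (-1.53 ± 0.07). For APAF1 the siRNA 1 arrays lay between those of the other groups, and siRNA 2 differed from siRNA 1 by -1.04. BZW2, a regulator of translation start-site choice, read 8.09 and 8.11 in control and 6.58 and 6.71 with siRNA 2 (-1.46 ± 0.07). SMU1, a subunit of the spliceosome, read 9.99 and 10.14 in control and 8.63 and 8.59 with siRNA 2 (-1.46 ± 0.08).

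The remaining 2-fold falls among protein-coding genes covered several compartments. MRPL58, which frees stalled mitochondrial ribosomes, fell by 1.28, and APOO, part of the complex that shapes mitochondrial cristae, fell by 1.19. TMEM30A, the partner subunit of phospholipid flippases, fell by 1.27 and NCEH1, which hydrolyses stored cholesterol esters, fell by 1.17. ATG14, which directs the class III phosphoinositide kinase to the site of autophagosome formation, fell by 1.23. These falls spread over mitochondria, membrane lipids and autophagy, with siRNA 1 differences from control between -0.11 and 0.11. GFRA1, the receptor subunit for GDNF, fell by 1.25, CDC123, an assembly factor of translation initiation factor eIF2, fell by 1.22, and NIP7, a factor for ribosome assembly, fell by 1.12. G3BP1, a core protein of stress granules, fell by 1.07 and RNF114, a ubiquitin ligase, fell by 1.08. CDK6, a kinase that drives entry into S phase, fell by 1.01 and DIXDC1, a positive regulator of Wnt signalling, fell by 1.01. TTPAL (-1.26), JPT2 (-1.13), CDIPT (-1.08), GALNT13 (-1.07), METTL9 (-1.04) and STARD3NL (-1.02) made up the rest of the 30 largest falls together with HEG1 (-1.05), whose call was lost without control replicate 2 (adjusted p = 0.146, limma).

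**Figure D2:**
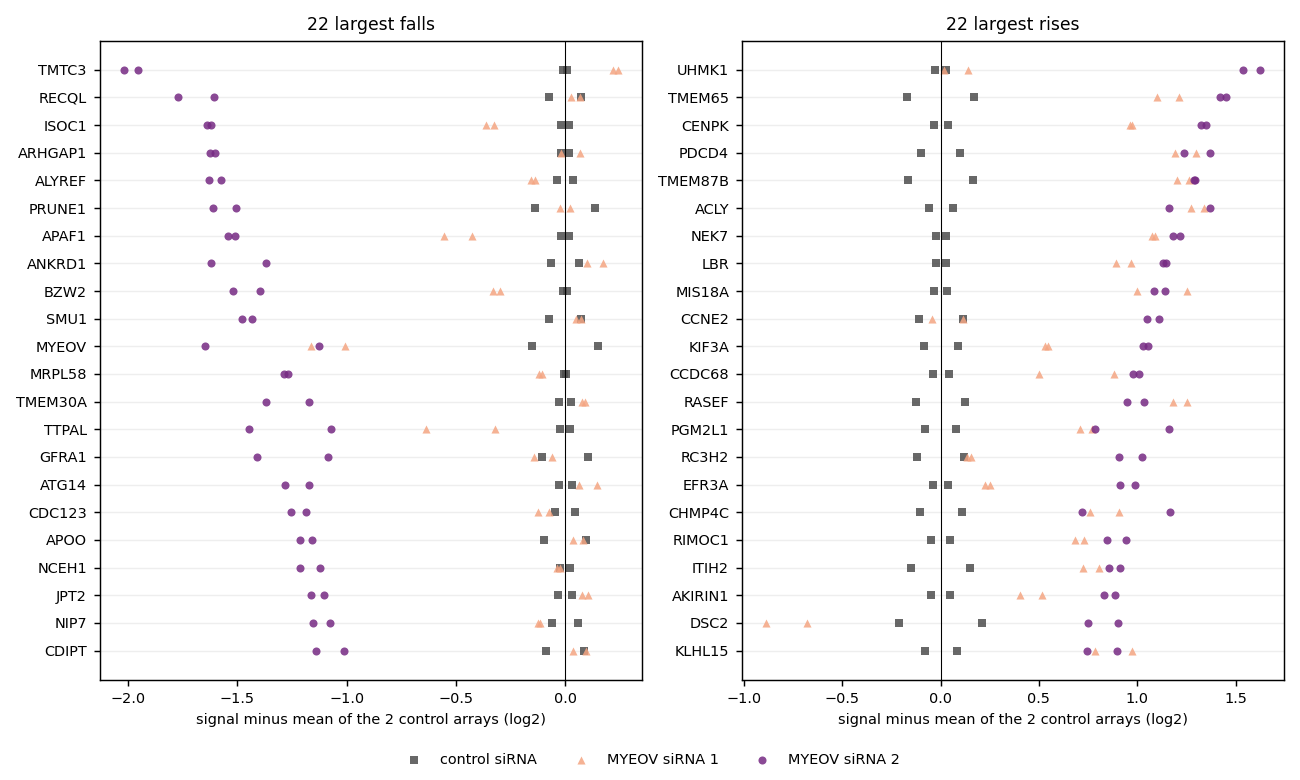
Signal of each array minus the mean of the 2 control arrays (log2, horizontal) for the 22 largest falls and the 22 largest rises among called protein-coding genes with siRNA 2; squares are control, triangles siRNA 1 and circles siRNA 2. Among the falls the triangles mostly lie with the squares, as for TMTC3 and SMU1, and among the rises they often lie with the circles, as for PDCD4 and ACLY.

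The largest rise was in UHMK1, a kinase that binds splicing factors and phosphorylates the cell-cycle inhibitor p27. UHMK1 read 7.86 and 7.92 in control, 8.03 and 7.91 with siRNA 1, and 9.43 and 9.51 with siRNA 2. Arrays of siRNA 2 stood alone at 299% of control (1.58 ± 0.08, adjusted p = 0.000142, limma). TMEM65, a protein of the inner mitochondrial membrane, read 7.74 and 7.40 in control, 8.67 and 8.79 with siRNA 1, and 8.99 and 9.02 with siRNA 2 (1.44 ± 0.12). CENPK, a subunit of the constitutive centromere network, read 6.90 and 6.83 in control, 7.83 and 7.83 with siRNA 1, and 8.21 and 8.19 with siRNA 2 (1.34 ± 0.07). For CENPK both MYEOV siRNAs lay above control, and siRNA 2 lay 0.37 above siRNA 1 (adjusted p = 0.018).

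Several of the next rises were of nearly the same size with both MYEOV siRNAs. PDCD4, an inhibitor of the translation factor eIF4A, read 7.64 and 7.43 in control, 8.83 and 8.73 with siRNA 1, and 8.77 and 8.90 with siRNA 2 (1.30 ± 0.09). ACLY, the enzyme that makes cytosolic acetyl-CoA from citrate for lipid synthesis, read 10.50 and 10.62 in control, 11.83 and 11.90 with siRNA 1, and 11.72 and 11.93 with siRNA 2 (1.27 ± 0.09). TMEM87B rose by 1.29, NEK7, a kinase of mitosis and of the NLRP3 inflammasome, by 1.20, LBR, the lamin B receptor, by 1.14, and MIS18A, needed to load the centromeric histone, by 1.11. In the direct contrast, siRNA 2 differed from siRNA 1 by 0.06 for PDCD4, -0.04 for ACLY, 0.06 for TMEM87B, 0.12 for NEK7, 0.21 for LBR and -0.01 for MIS18A, and limma called none of the 6 differences (adjusted p-values from 0.117 to 0.958). These 2 siRNA comparisons use the same control arrays. Since 2 control arrays set the base for both, their likeness against control is no independent evidence.

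In some of the other rises siRNA 2 also lay above siRNA 1. CCNE2, cyclin E2, which activates CDK2 at the start of S phase, read 5.62 and 5.84 in control, 5.84 and 5.69 with siRNA 1, and 6.78 and 6.84 with siRNA 2 (1.08 ± 0.10, adjusted p = 0.00133). KIF3A, a kinesin motor needed to build cilia, rose by 1.04 and was 0.50 above siRNA 1, which itself was called 0.54 above control. RC3H2, a Roquin protein that destabilises mRNA, rose by 0.96, and EFR3A, which anchors a phosphoinositide kinase at the plasma membrane, by 0.95. SEL1L3 rose by 0.81, and MAPK6, an atypical kinase of the MAPK family, by 0.76. Each of these 6 was also called against siRNA 1. IPMK, an inositol phosphate kinase, rose by 0.76 and ARRDC3, an arrestin-like adaptor, by 0.75, and AKIRIN1 by 0.86, again with a call against siRNA 1. With siRNA 1, IPMK (0.41) and AKIRIN1 (0.46) were called higher than control too. RASEF (0.99), CCDC68 (0.99), RIMOC1 (0.89), ITIH2 (0.88), KLHL15 (0.82), ANKFY1 (0.82) and ZNF254 (0.77) rose without a call in the direct contrast. Each was called higher than control with siRNA 1 too, from 0.57 for ZNF254 to 1.22 for RASEF. In 5 of the 30 largest rises the call was lost without an array: PGM2L1 (0.97, adjusted p = 0.0515 without control replicate 1), CHMP4C (0.94, 0.0832 without control replicate 2), DSC2 (0.83, 0.096 without siRNA 2 replicate 1), MEGF9 (0.77, 0.0762 without control replicate 2) and KCTD20 (0.74, 0.113 without siRNA 2 replicate 1).

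To describe the response by function, 50 gene lists were used. They hold 2934 distinct genes, of which 1646 were tested. Of the 508 called genes, 149 belong to a list and 359 to none. No list was tested as a set, and the count of each list stands beside the 6.83% called among all genes.

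Among targets of YAP and TAZ, the transcriptional coactivators that the Hippo kinases restrain, 4 of 13 tested members fell and 0 rose (30.8% called). The median of the 13 was -0.25, with 11 below 0, against 0.00 over all genes, and it was -0.01 with siRNA 1. ANKRD1, a nuclear and sarcomeric ankyrin protein widely used as a YAP readout, read 6.52 and 6.39 in control, 6.63 and 6.56 with siRNA 1, and 4.84 and 5.09 with siRNA 2. Both siRNA 2 arrays lay more than 1 below every other array (-1.50 ± 0.10, adjusted p = 0.000467, limma). They also read below the signal limit, which the mean of ANKRD1 passed through the control and siRNA 1 arrays. RMA compresses differences of dim transcripts, so the size of the ANKRD1 fall is uncertain. CCN2, the matricellular protein CTGF, read 7.79 and 8.04 in control, 7.57 and 7.88 with siRNA 1, and 7.26 and 7.23 with siRNA 2 (-0.67 ± 0.12). Calls other than that of ANKRD1 were lost when an array was left out, with adjusted p-values of 0.104 for CCN2 without siRNA 2 replicate 2, 0.0587 for AJUBA (-0.53) and 0.0635 for CRIM1 (-0.45) without siRNA 2 replicate 1. The list median stayed between -0.31 and -0.25 without each array. MYOF (-0.31) and FJX1 (-0.28) were not called, and ARHGEF17 had the highest value, 0.10.

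The promoters of ANKRD1 and CCN2, the pair of this list with the largest falls, are printed because YAP and TAZ act through TEAD factors bound to the motif GGAATG, shown in capitals. The windows run 250 bases before to 50 after the RefSeq start, on assembly GRCh38.p14, and both genes lie on the minus strand, ANKRD1 at chr10:90921038-90921337 and CCN2 at chr6:131951323-131951622.
ANKRD1: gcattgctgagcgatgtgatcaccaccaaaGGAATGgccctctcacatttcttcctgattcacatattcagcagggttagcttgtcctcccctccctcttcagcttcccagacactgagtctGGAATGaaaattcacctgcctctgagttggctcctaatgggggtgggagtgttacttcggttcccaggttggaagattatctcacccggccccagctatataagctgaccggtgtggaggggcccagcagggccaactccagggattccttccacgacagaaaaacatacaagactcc
CCN2: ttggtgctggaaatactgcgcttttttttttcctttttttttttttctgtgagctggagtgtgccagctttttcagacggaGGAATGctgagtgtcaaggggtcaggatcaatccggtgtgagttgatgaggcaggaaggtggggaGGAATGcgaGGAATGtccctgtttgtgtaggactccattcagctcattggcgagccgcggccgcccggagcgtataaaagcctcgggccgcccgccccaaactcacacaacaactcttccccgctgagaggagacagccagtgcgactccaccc
Counted from the start of transcription, the motif begins at -220 and -128 in ANKRD1 and at -169, -104 and -95 in CCN2, with both strands searched. Of 35116 promoter windows of this length, 14.03% held the motif at least once, 1.37% at least 2 times and 0.128% at least 3 times. Of the 13 tested list members, 11 had a window, and 7 of their 14 windows, which can overlap within a gene, held the motif. The list is made of YAP and TAZ targets, so this share says nothing about the effect of siRNA 2. Members that were not called held the motif too: WTIP, with 3 matches, FOXF2, AXL and AMOTL2. Whether the motif goes with the size of the change was not tested. A match describes the letters of the window and is not a measured binding site.

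Components of the Hippo pathway itself moved in both directions, with 1 of 16 tested members higher and 3 lower (25.0% called). Over all genes 6.83% were called. The list median was -0.01, with 8 members above 0 and 8 below. NF2, the membrane-linked tumour suppressor that activates the Hippo kinases, read 9.01 and 9.09 in control and 8.32 and 8.44 with siRNA 2 (-0.67 ± 0.07, adjusted p = 0.00311, limma). TEAD2, a DNA-binding partner of YAP, read 7.64 and 7.65 in control, 8.18 and 8.17 with siRNA 1, and 8.22 and 8.27 with siRNA 2 (0.60 ± 0.07). Against siRNA 1, NF2 was called as well (-0.60), and TEAD2 was not (0.07). The Hippo kinase gene STK4 was called at -0.54 and WWTR1, which encodes TAZ, at -0.43. Both calls were lost without siRNA 2 replicate 2, at adjusted p-values of 0.0755 for STK4 and 0.104 for WWTR1.

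Genes of actin and cell adhesion were among the clearest falls. MSN, moesin, which links actin to the plasma membrane, read 11.56 and 11.65 in control, 11.64 and 11.65 with siRNA 1, and 10.61 and 10.63 with siRNA 2 (-0.99 ± 0.07, adjusted p = 0.00053, limma). PAK2, a kinase downstream of Rac and Cdc42, read 9.02 and 9.13 in control and 8.37 and 8.28 with siRNA 2 (-0.75 ± 0.08). With ARHGAP1, described above, these 3 falls held without each array. FERMT2, kindlin-2, which activates integrins, was the 1 called gene of 10 tested integrin and focal adhesion genes. FERMT2 read 8.72 and 8.78 in control, 8.78 and 8.87 with siRNA 1, and 7.80 and 7.71 with siRNA 2 (-0.99 ± 0.07). MSN and FERMT2 were also called against siRNA 1, at -1.03 and -1.07.

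The surroundings of these genes moved less. Among 11 tested genes of the extracellular matrix and its proteases, limma called 0 and 4 had an unadjusted p under 0.05. The extremes were the matrix proteoglycan BGN at -0.39 and the protease inhibitor TIMP2 at 0.28. Of 17 tested epithelial junction and keratin genes, the desmosomal cadherin DSC2 was the 1 called (0.83, adjusted p = 0.096 without siRNA 2 replicate 1), and of 15 mesenchymal and TGF-beta response genes 3 were, all lost without 1 array. The latter were the SMAD deubiquitinase USP15 (0.47, adjusted p = 0.0733 without siRNA 2 replicate 2), SMAD2 (0.34, 0.199 without siRNA 2 replicate 2) and SKIL, an inhibitor of SMADs (-0.32, 0.153 without siRNA 2 replicate 1).

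Genes of the cell cycle changed individually and in both directions. Of 33 tested genes of G1/S and DNA replication, 1 rose and 4 fell (15.2%), with a median of -0.06. CDK6 read 9.15 and 9.02 in control, 9.42 and 9.37 with siRNA 1, and 8.04 and 8.10 with siRNA 2 (-1.01 ± 0.08, adjusted p = 0.00062, limma). CCND1, cyclin D1, the partner of CDK6, read 9.46 and 9.50 in control, 9.38 and 9.41 with siRNA 1, and 8.80 and 8.73 with siRNA 2 (-0.72 ± 0.07). So CDK6 and its cyclin fell while CCNE2, described above, rose, and all 3 were called against siRNA 1 as well. CCNE1, cyclin E1, was called at -0.33 (adjusted p = 0.184 without siRNA 2 replicate 1) and GINS1, of the replicative helicase, at -0.48 (0.135 without siRNA 2 replicate 2).

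Among 42 tested genes of G2/M and mitosis, 1 rose and 4 fell (11.9%), with a median of -0.01. MAD2L1, the spindle checkpoint protein, read 8.18 and 8.46 in control, 8.07 and 8.08 with siRNA 1, and 7.34 and 7.39 with siRNA 2 (-0.95 ± 0.10). CDCA8, borealin of the chromosomal passenger complex, read 8.01 and 8.10 in control, 7.66 and 7.78 with siRNA 1, and 7.05 and 7.13 with siRNA 2 (-0.96 ± 0.08, adjusted p = 0.000817, limma). Both genes were lower with siRNA 2 than with siRNA 1, by 0.71 and 0.63 on the log2 scale, and both differences were called. WEE1, the kinase that holds back mitosis, was called at -0.62 (adjusted p = 0.0699 without control replicate 2) and CKS1B, a CDK subunit, at -0.32 (0.162 without siRNA 2 replicate 1).

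Of 33 tested genes of the centromere, kinetochore and cohesin, 3 rose and 2 fell (15.2%), with a median of 0.05 and 23 genes above 0. This median depended on single control arrays: it was -0.01 without control replicate 1 and 0.13 without control replicate 2. The 3 rises, CENPK, MIS18A and CENPQ, held without each array. CENPQ, of the constitutive centromere network, read 6.59 and 6.74 in control, 7.16 and 7.14 with siRNA 1, and 7.45 and 7.27 with siRNA 2 (0.69 ± 0.09, adjusted p = 0.00593, limma), and its call was lost when all 14884 genes were tested (0.0575). CENPA, the centromeric histone that MIS18A helps to place, was called at -0.56 (adjusted p = 0.0952 without siRNA 2 replicate 1). SKA1, which couples kinetochores to microtubules, was called at -0.42 (0.121 without siRNA 2 replicate 2).

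Single factors that process and carry RNA, such as UHMK1, SMU1 and ALYREF, were among the largest changes in both directions. Calls in the splicing list were no more frequent than the 6.83% among all genes. Of 78 tested splicing factors, 1 rose and 3 fell (5.13%), with a median of -0.01, and these 4 calls held without each array. They were UHMK1 and SMU1, given above, with SRPK2, a kinase of SR proteins, at -0.64 ± 0.07 and HNRNPF, an hnRNP that binds G-rich RNA, at -0.54 ± 0.06. SRPK2 read 7.54 and 7.65 in control and 6.99 and 6.92 with siRNA 2. HNRNPF read 10.50 and 10.48 in control, 10.48 and 10.49 with siRNA 1, and 9.96 and 9.94 with siRNA 2. Arrays of siRNA 2 did not overlap the others for HNRNPF, although its adjusted p was 0.0522 when all 14884 genes were tested.

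Of 54 tested genes of mRNA export and the nuclear pore, 1 rose and 4 fell (9.26%). Besides ALYREF, the importin KPNA6 fell by 0.87 ± 0.08, from 9.00 and 8.94 in control to 8.17 and 8.02 (adjusted p = 0.00162, limma). The calls of the importin IPO8 (-0.43, adjusted p = 0.18), the export subunit THOC5 (-0.29, 0.18) and the nucleoporin NUP58 (0.40, 0.0847) were lost without siRNA 2 replicate 1. Of 26 tested genes of RNA decay and RNA interference, 2 were called (7.69%, near the 6.83% of all genes). PUM2, a Pumilio repressor of mRNAs, read 9.04 and 9.08 in control, 9.63 and 9.63 with siRNA 1, and 9.74 and 9.76 with siRNA 2 (0.68 ± 0.06). PAN3, of a deadenylase complex, was called at -0.59 (adjusted p = 0.0664 without control replicate 1).

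Translation genes showed the same mixture. Of 22 tested translation factors, 1 rose and 3 fell (18.2%), with a median of -0.02. BZW1, the paralog of BZW2, read 9.85 and 9.91 in control, 9.93 and 9.93 with siRNA 1, and 9.02 and 9.00 with siRNA 2 (-0.87 ± 0.07, adjusted p = 0.000632, limma). Both BZW genes were therefore lower than in either other group, at -1.15 for BZW2 and -0.92 for BZW1 against siRNA 1. EIF4E, the cap-binding protein, was called at -0.31 (adjusted p = 0.169 without siRNA 2 replicate 2). Of 38 tested genes of ribosome biogenesis, NIP7 was the 1 called (2.63%). The median of this list was -0.12 with siRNA 2 and -0.11 with siRNA 1. YRDC, which modifies tRNA, was the 1 called of 33 tRNA genes, at -0.52 (adjusted p = 0.155 without control replicate 1). Of 45 tested cytosolic ribosomal protein genes, limma called 0, 2 had an unadjusted p under 0.05, and the values ran from -0.27 to 0.37.

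Lipid enzymes were called in both directions. Of 39 tested enzymes of sphingolipids and phospholipids, 3 rose and 8 fell (28.2%), around a median of 0.04. CDIPT, which makes phosphatidylinositol, read 9.43 and 9.26 in control, 9.44 and 9.38 with siRNA 1, and 8.20 and 8.33 with siRNA 2 (-1.08 ± 0.09, adjusted p = 0.000817, limma). CDS2, which makes the CDP-diacylglycerol that CDIPT uses, read 8.82 and 8.83 in control, 8.96 and 8.99 with siRNA 1, and 8.25 and 8.23 with siRNA 2 (-0.59 ± 0.06). Consecutive enzymes of phosphatidylinositol synthesis were thus both lower with siRNA 2 than in either other group. The phosphatidylinositol kinase PI4K2A was called at -0.77 (adjusted p = 0.117 without control replicate 1). The other calls of the list were lost without 1 array: the ceramidases ACER2 (-0.50, 0.165 without control replicate 1) and ACER3 (-0.52, 0.148 without siRNA 2 replicate 1), then ETNK1 (-0.44, 0.102), DDHD1 (-0.35, 0.142), SGPL1 (-0.34, 0.148), SGMS2 (0.57, 0.0504) and CERK (0.47, 0.0974) without siRNA 2 replicate 2, and GPAT3 (0.47, 0.124) without siRNA 2 replicate 1. Calls in this list numbered between 3 and 7 without each array, so the share of the list depends on single arrays.

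In fatty acid and acetyl-CoA metabolism, 2 of 30 tested genes rose and 1 fell (10.0%), and ACLY alone held without each array. ACSL1, which activates fatty acids, was called at -0.52 (adjusted p = 0.128 without siRNA 2 replicate 1, limma) and ACAA1, a peroxisomal thiolase, at 0.36 (0.196 without siRNA 2 replicate 2). Of 20 tested genes of cholesterol and sterol synthesis, 2 rose and 0 fell (10.0%), with a median of 0.13 and 15 genes above 0. These were LBR, which is both a sterol reductase and an inner nuclear membrane protein, and INSIG1, the feedback regulator of sterol synthesis, at 0.39 (0.0959 without siRNA 2 replicate 2). LBR read 8.19 and 8.25 in control, 9.11 and 9.19 with siRNA 1, and 9.35 and 9.37 with siRNA 2. Of 17 tested genes of the nuclear envelope, LBR and SUN2 rose and TMEM43 and NEMP1 fell (23.5%). TMEM43 read 10.47 and 10.41 in control and 9.81 and 9.69 with siRNA 2 (-0.69 ± 0.07), and NEMP1 read 9.12 and 9.17 in control and 8.62 and 8.62 with siRNA 2 (-0.52 ± 0.07). The call of SUN2 (0.40) was lost without siRNA 2 replicate 2 (adjusted p = 0.171), and that of NEMP1 when all genes were tested (0.0661).

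Genes of the secretory and endosomal route were called in both directions. Of 38 tested glycosylation genes, TMTC3 and CHSY1 fell and GALNT1 was called higher (7.89%), the last at 0.59 (adjusted p = 0.174 without siRNA 2 replicate 2). CHSY1, a chondroitin synthase, read 7.35 and 7.30 in control and 6.61 and 6.80 with siRNA 2 (-0.62 ± 0.08), with an adjusted p of 0.0614 when all genes were tested. Of 75 tested genes of ER and Golgi transport, 4 rose and 6 fell (13.3%), with a median of -0.03. ARCN1, a subunit of the COPI coat, fell from 10.38 and 10.51 in control to 9.71 and 9.65 with siRNA 2 (-0.76 ± 0.08, adjusted p = 0.00234, limma), the 1 call of this list that held without each array. GOLIM4 (0.67, 0.0898 without control replicate 1), STX6 (0.56, 0.0755 without siRNA 2 replicate 2), SEC22B (0.50, 0.0604 without siRNA 2 replicate 1) and SEC22C (0.34, 0.166 without siRNA 2 replicate 2) were called higher. GOLM1 (-0.50, 0.119) and ARF6 (-0.32, 0.162) without siRNA 2 replicate 1, and EXOC1 (-0.47, 0.0812), TRAPPC11 (-0.36, 0.215) and ARF1 (-0.30, 0.177) without siRNA 2 replicate 2, were called lower.

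Of 64 tested genes of endosomes, ESCRT and RAB trafficking, 3 rose and 3 fell (9.38%). EPS15, an adaptor of clathrin-mediated endocytosis, read 8.13 and 8.26 in control, 8.33 and 8.26 with siRNA 1, and 7.30 and 7.51 with siRNA 2 (-0.79 ± 0.09, adjusted p = 0.00391, limma). RASEF, a RAB protein with EF hands, rose from 7.31 and 7.06 to 8.22 and 8.13, and ANKFY1, a RAB5 effector, from 8.36 and 8.28 to 9.07 and 9.20. The fall of EPS15 was called against siRNA 1 (-0.89), while the rises of RASEF and ANKFY1 were not (-0.23 and -0.04). RUFY2 (-0.53, 0.139 without siRNA 2 replicate 1), RAB11FIP1 (-0.49, 0.138 without siRNA 2 replicate 2) and CHMP4C (0.94, 0.0832 without control replicate 2) lost their calls. Of 48 tested lysosome and autophagy genes, 1 rose and 2 fell (6.25%, near the 6.83% of all genes). The largest of these changes was in ATG14, which read 7.25 and 7.19 in control and 5.94 and 6.05 with siRNA 2. ATG5 (-0.32, 0.167) and ATG16L1 (0.44, 0.104), which act together in the conjugation step of autophagy, were called in opposite directions, and both calls were lost without siRNA 2 replicate 1.

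Ubiquitin genes gave the same count of rises and falls. Of 85 tested ubiquitin-conjugating enzymes and ligases, 5 rose and 5 fell (11.8%). FBXO11, a substrate receptor of an SCF ligase, read 9.53 and 9.51 in control, 9.57 and 9.59 with siRNA 1, and 8.67 and 8.81 with siRNA 2 (-0.78 ± 0.07, adjusted p = 0.00162, limma). MIB1, a ligase that promotes endocytosis of Notch ligands, rose from 7.92 and 7.94 to 8.59 and 8.51, and KLHL15, a Cullin-3 adaptor, from 5.95 and 6.11 to 6.78 and 6.93. These 3 held without each array. KLHL20 (0.52, 0.0722), UBE2A (0.49, 0.0716), TRIM24 (0.37, 0.161), CUL5 (-0.46, 0.0929), KLHL21 (-0.35, 0.228) and UBE2L6 (-0.34, 0.167) lost their calls without siRNA 2 replicate 2, and UBE2V2 (-0.47, 0.113) without siRNA 2 replicate 1.

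Deubiquitinases had 4 rises and 5 falls among 51 tested (17.6%), with a median of -0.02. USP37, which stabilises cyclin A, read 7.89 and 7.73 in control and 6.91 and 7.05 with siRNA 2 (-0.83 ± 0.10, adjusted p = 0.00445, limma). USP47, which acts in base excision repair, read 9.93 and 9.90 in control, 10.11 and 10.05 with siRNA 1, and 9.20 and 9.19 with siRNA 2 (-0.72 ± 0.07). USP14, of the proteasome, rose from 9.66 and 9.80 to 10.39 and 10.40 (0.66 ± 0.08). USP37 and USP47 differed from siRNA 1 as well, at -0.53 and -0.88, and USP14 did not (0.17). USP46 fell by 0.49, with an adjusted p of 0.0756 when all genes were tested. USP53 (-0.75, 0.177 without control replicate 1), USP42 (-0.36, 0.141), USP15 (0.47, 0.0733) and USP38 (0.33, 0.21) without siRNA 2 replicate 2, and USP12 (0.61, 0.0948 without control replicate 2) lost their calls.

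Of 84 tested genes of the mitochondrial ribosome and of protein import, 5 fell and 0 rose (5.95%, near the 4.23% called lower among all genes), with a median of -0.01. MRPL58 (-1.28), described above, was not in this list and is not counted. TIMM17A, a channel subunit of the inner membrane translocase, read 6.02 and 6.16 in control, 6.11 and 6.09 with siRNA 1, and 5.45 and 5.43 with siRNA 2 (-0.66 ± 0.07, adjusted p = 0.00318, limma). The ribosomal proteins MRPS10 (-0.55) and MRPL18 (-0.49) fell too, with adjusted p-values of 0.0588 and 0.075 when all genes were tested. TOMM22 (-0.34, 0.129 without siRNA 2 replicate 2) and TOMM40 (-0.32, 0.162 without siRNA 2 replicate 1), of the outer membrane translocase, lost their calls. Of 14 tested respiratory chain genes, limma called 0 and 1 had an unadjusted p under 0.05, with values from -0.25 to 0.22.

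In the apoptosis list, 1 of 19 tested genes rose and 1 fell (10.5%), PDCD4 and APAF1, with a median of -0.09. Of 36 tested genes of DNA repair and checkpoints, 2 fell and 0 rose (5.56%), RECQL and APEX1. APEX1, the endonuclease that cuts abasic sites, read 10.66 and 10.73 in control, 10.72 and 10.73 with siRNA 1, and 10.00 and 10.03 with siRNA 2 (-0.68 ± 0.07, adjusted p = 0.00188, limma). Both falls were called against siRNA 1, at -1.74 for RECQL and -0.72 for APEX1. The list median of -0.12 moved to -0.01 without control replicate 2.

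Among signalling genes, the Wnt list had the most calls that held. Of 27 tested Wnt and beta-catenin genes, 2 rose and 3 fell (18.5%), with a median of -0.01. DKK1, a secreted Wnt antagonist, read 9.91 and 10.07 in control, 9.99 and 10.04 with siRNA 1, and 9.04 and 9.12 with siRNA 2 (-0.91 ± 0.08, adjusted p = 0.00121, limma). LGR4, a receptor for R-spondins, which amplify Wnt signals, fell from 10.35 and 10.35 to 9.76 and 9.81 (-0.57). FZD6, a Wnt receptor, rose from 9.25 and 9.17 to 9.77 and 9.92 (0.63). DKK1 and LGR4 were also called against siRNA 1, at -0.94 and -0.65, and FZD6 was not (0.21). The calls of LGR4 (0.0522) and FZD6 (0.0548) were lost when all genes were tested, and that of FZD1 (0.38) without siRNA 2 replicate 2 (0.212). CCND1, a Wnt and ERK target, was the third fall. Of 36 tested genes of ERK output and the EGFR family, CCND1 and SPRY2, a feedback inhibitor, were called lower (5.56%), SPRY2 at -0.60 (0.0894 without control replicate 1). Of 31 genes of PI3K, AKT and mTOR signalling, the phosphatase PHLPP2 was the 1 called, at 0.36 (0.185 without siRNA 2 replicate 1).

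Every group received duplex RNA, which cells can sense as foreign nucleic acid. Of 26 tested interferon and nucleic acid sensing genes, 1 rose and 3 fell (15.4%), with a median of -0.07. IRF2, a transcription factor that restrains interferon responses, read 8.42 and 8.38 in control, 8.31 and 8.31 with siRNA 1, and 7.42 and 7.62 with siRNA 2 (-0.88 ± 0.08, adjusted p = 0.00162, limma). IRF9, which pairs with STATs, was called at 0.41 (0.126 without siRNA 2 replicate 2), the kinase TYK2 at -0.39 (0.152 without siRNA 2 replicate 2) and UBE2L6, given above, at -0.34 (0.167 without siRNA 2 replicate 2). Of 27 tested NF-kB, cytokine and chemokine genes, REL was the 1 called, at -0.51 (0.129 without control replicate 1), and the chemokine CXCL8 had a larger difference, -0.90, that was not called (adjusted p = 0.0723).

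In the stress response lists no call held without each array. Of 22 tested heat shock and chaperone genes, 4 rose and 0 fell (18.2%), HSPB1 (0.50), BAG2 (0.38), BAG4 (0.38) and HSPA4L (0.36), and the list median was 0.01. All 4 calls were lost without 1 siRNA 2 array, at adjusted p-values from limma of 0.0749 for HSPB1 and 0.12 for BAG2 without replicate 2, and 0.135 for BAG4 and 0.139 for HSPA4L without replicate 1. Of 31 tested genes of the unfolded protein response, 3 were called lower: SEC61A1, the translocation channel (-0.72, 0.0522 without control replicate 1), ERO1B (-0.71, 0.138 without siRNA 2 replicate 2) and the transcription factor XBP1 (-0.42, 0.107 without control replicate 1). Of 17 tested ATF4 and amino acid response genes, limma called 0 and 0 had an unadjusted p under 0.05. The share called was 7.69% in the NRF2, glutathione and thioredoxin list and 13.6% in the hypoxia and glycolysis list. HMOX1, heme oxygenase 1 (0.53, 0.113 without siRNA 2 replicate 1), and CAT, catalase (0.47, 0.0722 without siRNA 2 replicate 2), were called higher among 26 NRF2, glutathione and thioredoxin genes. Of 22 hypoxia and glycolysis genes, the oxygen sensor EGLN1 was called lower (-0.64, 0.0671 without control replicate 2), and VEGFA (0.33, 0.201 without siRNA 2 replicate 1) and HK1 (0.35, 0.217 without siRNA 2 replicate 2) higher.

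Chromatin and transcription genes were called no more often than all genes. Of 30 tested chromatin remodelling genes, CHD9 (-0.49, 0.0642 without siRNA 2 replicate 1) and CHD7 (-0.42, 0.144 without siRNA 2 replicate 1) were called lower (6.67%). Of 56 genes of histone methylation and Polycomb, SCML1 (0.54, 0.0639 without control replicate 1) and PCGF3 (0.52, 0.12 without siRNA 2 replicate 1) were called higher (3.57%). Of 45 Mediator and RNA polymerase II genes, TBP (-0.40, 0.165 without siRNA 2 replicate 1) and MED1 (-0.38, 0.148 without siRNA 2 replicate 2) were called lower (4.44%). In the remaining lists, 1 of 75 tested microtubule, cilium and centrosome genes rose, KIF3A, and 1 fell, BBS10 (-0.40, 0.174 without siRNA 2 replicate 2). Of 35 nucleotide and one-carbon genes, PRUNE1 fell, SHMT1 (-0.54, 0.162 without siRNA 2 replicate 1) was called lower and ADA (0.37, 0.152 without siRNA 2 replicate 2) higher, all adjusted p-values being from limma. The proteasome list had 1 tested gene and the solute carrier list 2, and none was called.

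**Figure D3:**
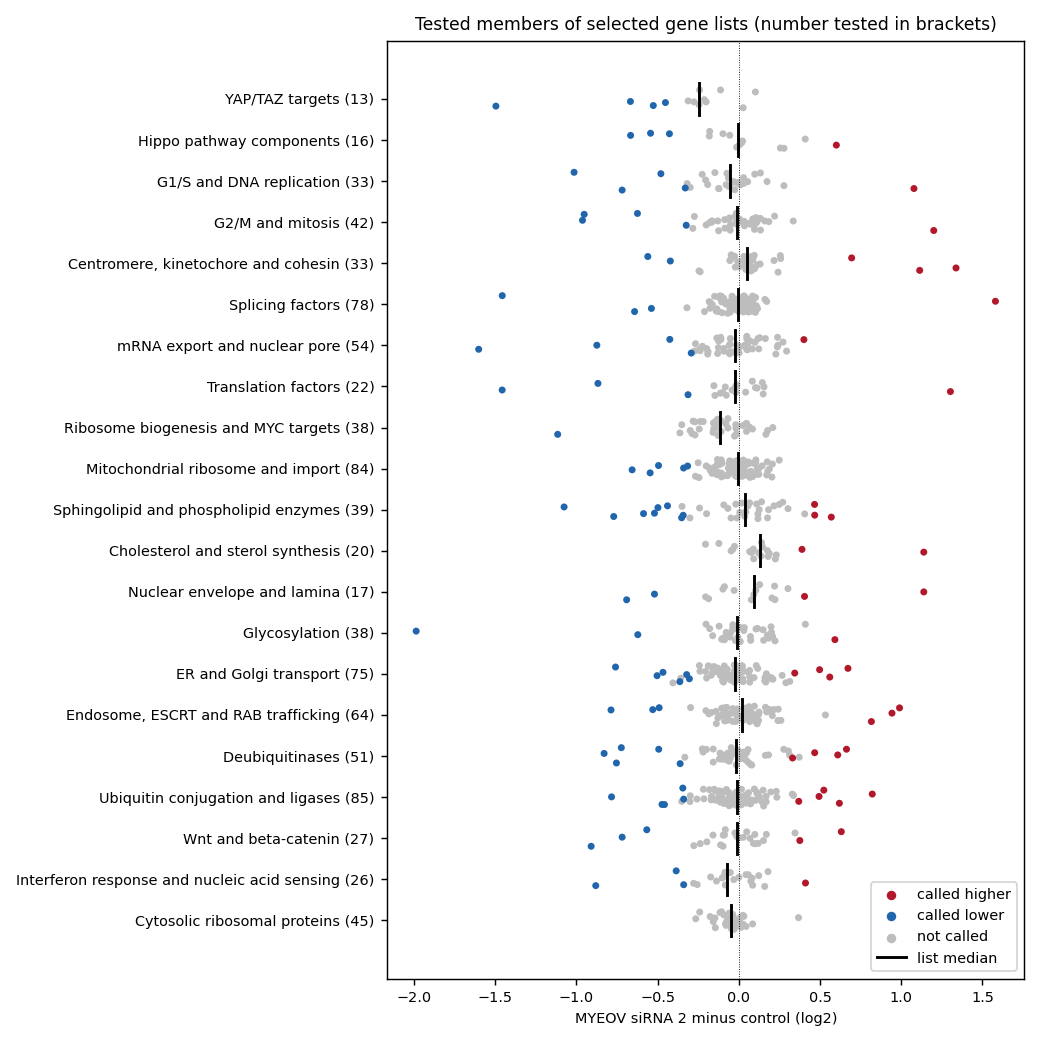
Difference of siRNA 2 from control (log2, horizontal) for the tested members of selected gene lists, with the number tested in brackets; each point is a gene, red called higher, blue called lower, grey not called, and a black bar marks the list median. List medians lie near 0, with YAP/TAZ targets at -0.25 the furthest, while single genes in several lists lie beyond 1 in either direction.

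Which changes set siRNA 2 apart from siRNA 1 was read from the direct contrast of their arrays, in which limma called 681 of 7442 genes (9.15%), 281 higher (3.78%) and 400 lower (5.37%) with siRNA 2. Against control, siRNA 1 gave 347 calls (4.66%). Of the 315 genes that siRNA 2 lowered against control, 225 were also lower than with siRNA 1. Of the 193 that it raised, 50 were also higher than with siRNA 1, and 2 were called lower. In all, 275 genes differed from both references in the same direction. Among falls of 2-fold or more the share was 30 of 31 (96.8%), with MYEOV the exception, and among rises of 2-fold or more it was 4 of 11 (36.4%): UHMK1, CENPK, CCNE2 and KIF3A. For falls between 0.5 and 1 it was 111 of 135, and for rises of that size 23 of 66. The median siRNA 1 difference from control was -0.05 over the 315 lower genes and 0.29 over the 193 higher genes, beside siRNA 2 medians of -0.51 and 0.46, all against the same 2 control arrays. Since siRNA 2 arrays enter both contrasts, a deviation of these arrays would appear in both.

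**Figure D4:**
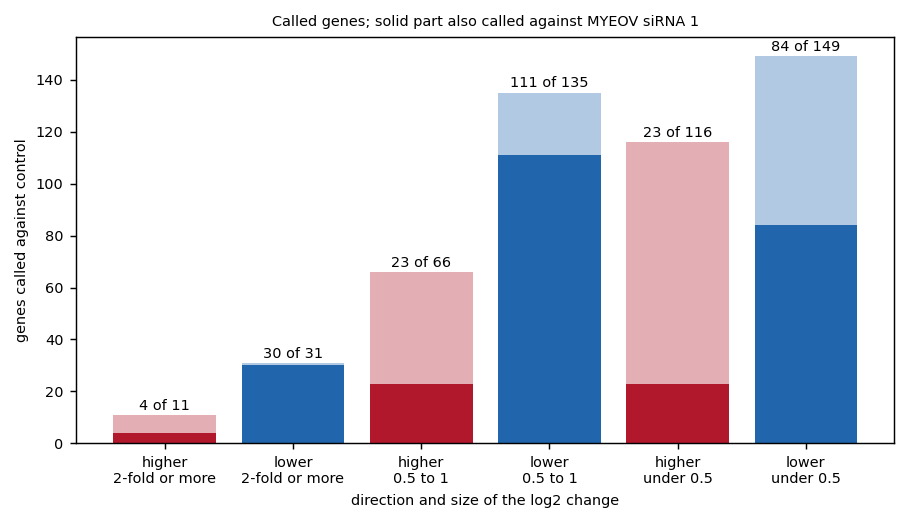
Genes called with siRNA 2 against control, by direction and size of the difference (log2); the full bar counts the called genes and the solid part those also called in the same direction against siRNA 1. The solid part covers 30 of 31 falls of 2-fold or more and 4 of 11 rises of that size.

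The largest differences between the siRNAs included genes that siRNA 2 left near control. GPR180, a receptor-like membrane protein, read 8.28 and 8.41 in control, 6.88 and 6.95 with siRNA 1, and 8.49 and 8.67 with siRNA 2, so that siRNA 2 was 1.66 ± 0.09 above siRNA 1 (adjusted p = 0.000168, limma) and 0.24 above control (adjusted p = 0.179). UBE3C, a ubiquitin ligase (1.46), SKAP2, an adaptor of Src kinases (1.41), SUZ12, a core subunit of Polycomb repressive complex PRC2 (1.16), TRIM37 (1.10) and TEX30 (1.09) had the same form, with values of 0.12, 0.21, 0.26, 0.20 and -0.10 against control that were not called. SCML2, a Polycomb-related protein, was 1.57 above siRNA 1 and 0.52 above control (adjusted p = 0.0761). In the other direction the 12 largest differences, from TMTC3 at -2.22, RECQL at -1.74 and ARHGAP1 at -1.64 to APOO at -1.24, were all genes that fell against control with siRNA 2.

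Both siRNAs moved 11 genes in opposite directions against control, of which 10 are protein-coding genes with resolved names. LIN7C, a scaffold protein of cell junctions, read 8.95 and 8.97 in control, 8.22 and 8.27 with siRNA 1, and 9.54 and 9.62 with siRNA 2. For LIN7C the 3 groups did not overlap, and its call with siRNA 2 held without each array (0.61 ± 0.07, adjusted p = 0.00314, limma). DSC2, desmocollin 2, read 6.41 and 6.84 in control, 5.94 and 5.74 with siRNA 1, and 7.53 and 7.38 with siRNA 2. GALNT1, which starts mucin-type O-glycosylation, read 9.51 and 9.77 in control, 8.60 and 8.88 with siRNA 1, and 10.15 and 10.31 with siRNA 2. SCML1, HMOX1 and ZBTB41 were likewise higher with siRNA 2 and lower with siRNA 1, and MMD, TMEM181, CFAP418 and SPIN1 were lower with siRNA 2 and higher with siRNA 1. Apart from LIN7C, the siRNA 2 calls were lost without an array. The highest adjusted p was 0.174 for GALNT1 without siRNA 2 replicate 2, 0.0639 for SCML1 without control replicate 1, and, without siRNA 2 replicate 1, 0.096 for DSC2, 0.113 for HMOX1, 0.184 for ZBTB41, 0.12 for MMD, 0.0741 for TMEM181, 0.113 for CFAP418 and 0.139 for SPIN1.

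**Figure D5:**
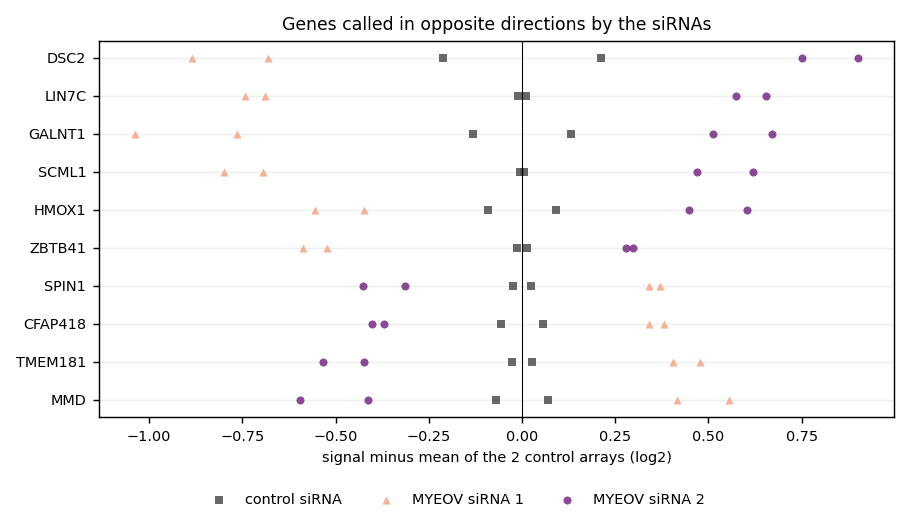
Signal of each array minus the mean of the 2 control arrays (log2, horizontal) for the 10 named genes called in opposite directions; squares are control, triangles siRNA 1 and circles siRNA 2. In all 10 genes the siRNA 2 arrays lie on 1 side of the control arrays and the siRNA 1 arrays on the other, from DSC2, LIN7C and GALNT1 with siRNA 2 on the right to MMD with siRNA 2 on the left.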

How the data were processed

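Per the submitters' processing notes, the authors made the deposited log2 values with RMA. The sources used here give no RMA version. The table holds 53617 rows, of which 16098 have 1 gene symbol in the platform annotation, 0 several and 37519 none. All 16098 gene identifiers matched RefSeq genes (GRCh38.p14). For the 779 genes with several rows, the row with the highest mean was used. No further normalization was applied.

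The model for each of 7442 genes used lmFit and eBayes (limma 3.58.1, R 4.3.3) over 6 arrays in 3 groups, with 3 residual and 4.09 prior degrees of freedom, and p-values were adjusted by the Benjamini-Hochberg method. The steps were tested on simulated data. The members, gene lists and rule for named genes were chosen with earlier results of these data known. Named genes were MYEOV, the 30 largest called rises and falls whose siRNA 2 arrays lay outside the control arrays, called or extreme list members, the 12 largest differences between the siRNAs per direction and genes called in opposite directions. Non-coding and unresolved symbols were left out of the ranking (26 called genes). The results of 3 gene lists are not reported here. Promoter sequences are from RefSeq. Alternatives changed the filter, the rows of a gene, the normalization, the arrays in the fit, the variance prior, array weights and a replicate block. Figures were drawn with matplotlib 3.10.9.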

Additional observations from a re-analysis of the deposited data

Results flagged for a closer look

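The 10 named genes called in opposite directions against control were also called in the direct limma contrast of both siRNAs, with Benjamini-Hochberg adjustment. Since these genes were picked for their opposite calls, the direct contrast is no separate evidence for them. As siRNA 2 minus siRNA 1 on the log2 scale, the values were 1.61 for DSC2, 1.49 for GALNT1, 1.33 for LIN7C, 1.29 for SCML1, 1.02 for HMOX1, 0.84 for ZBTB41, -0.99 for MMD, -0.92 for TMEM181, -0.75 for CFAP418 and -0.73 for SPIN1. Groups of 2 arrays are too small for a check of outlying samples.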

How the results depend on the processing

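MYEOV kept its fall under all alternatives in which it was tested, from -1.65 to -1.13 without each array, and it fell below the filter at the 75th percentile of signal. The 508 calls with siRNA 2 became 139 with no filter on mean signal (127 of them shared) and 331 with only the arrays of the 2 groups compared. Leaving out single arrays gave 207 to 331 calls: 211 and 212 without control replicates 1 and 2, 217 and 207 without siRNA 2 replicates 1 and 2, and 331 without either siRNA 1 array, which leaves an siRNA 1 array that adds nothing to the spread. Where 1 array of a group was left, it was assumed to vary like the other groups. The 681 differences from siRNA 1 became 195 with no filter, and 226 to 618 without single arrays: 280 and 226 without siRNA 1 replicates 1 and 2, and 318 and 317 without siRNA 2 replicates 1 and 2. Other settings gave 436 to 702 and 618 to 922 calls. The count of no other setting left the range within 1.5 times. Among the named genes and called list members, the genes followed across settings, no called value changed sign. Quantile normalization moved the split with siRNA 2 to 224 higher and 280 lower. The replicate number as a block gave 702 and 922 calls. Same-numbered arrays deviated together (correlations of 0.265, 0.205 and 0.251), but with 2 numbers this is a hint from the data, not a pairing by design.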

Other observations

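Among the 359 called genes in no list, the following, all falls, were chosen after their values were seen, from calls that held without each array. Over all genes tested, the calls that held were 44 rises and 109 falls. Genes chosen in this way give no share for any function. In the lists, 2.63% of ribosome biogenesis genes and 5.56% of DNA repair genes were called, beside 6.83% of all genes. MARCKS, an actin-binding substrate of protein kinase C, read 8.66 and 8.61 in control, 8.88 and 8.92 with siRNA 1, and 7.77 and 7.74 with siRNA 2 (-0.88 ± 0.07). TMOD3, which caps actin filaments, differed from control by -0.79, and LPAR1, a receptor for lysophosphatidic acid, by -0.89. In these 3 genes siRNA 2 lay below both other groups. STARD7, a carrier of phosphatidylcholine to mitochondria, differed by -0.82, AGK, a mitochondrial lipid kinase, by -0.73, and DHTKD1, a mitochondrial dehydrogenase, by -0.95. COPS2, of the COP9 signalosome that controls cullin ligases, read 10.42 and 10.41 in control and 9.50 and 9.35 with siRNA 2, and ANAPC13, of the anaphase-promoting complex, differed by -0.74. MYBL2, a transcription factor of G2/M genes, read 10.03 and 10.11 in control and 9.46 and 9.49 with siRNA 2 (-0.59). The ribosome assembly factors WDR36 (-0.81), MAK16 (-0.87) and RIOK1 (-0.62), and the DNA repair genes TDG (-0.88) and MMS19 (-0.73), were lower too.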
